A study of Mus musculus with 20 samples.

Results

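The nucleus accumbens (NAc) of mice that had received morphine was compared with that of mice that had received vehicle, by RNA-seq. All libraries whose labels give the nucleus accumbens as the tissue were taken, which makes 10 of the 20 libraries of the series, 5 from morphine mice and 5 from vehicle mice. The other 10 come from the trigeminal ganglia (TG) of the same mice. Every mouse was a male C57BL/6J, 9 to 12 weeks old, and tissue was collected 24 h after the last injection. The labels code the morphine mice as OIH and their controls as VehicleOIH. OIH commonly stands for opioid-induced hyperalgesia, in which opioid treatment itself heightens sensitivity to pain. No source used here gives the dose, the number of injections or the hour of collection. Each library is 1 mouse, and the vehicle mice are the controls.

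The nucleus accumbens is the ventral part of the striatum, and it links reward to action. Most of its neurons are medium spiny neurons, inhibitory projection cells that carry either the dopamine receptor D1 with the peptides dynorphin and substance P, or the receptor D2 with enkephalin. Morphine acts on the mu opioid receptor, both here and on the neurons that control dopamine release into the accumbens. Around the neurons lie oligodendrocytes, which make central myelin, astrocytes, microglia, blood vessels and the meninges.

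The 10 libraries held 52402037 to 64357778 estimated counts, and levels are given as CPM, the counts relative to library size on a common scale after TMM scaling. The tissue check found the striatal gene Drd1 in every library. Drd1, the D1 receptor gene, was at 269, 127, 203, 226 and 363 CPM in vehicle libraries 1 to 5 and at 289.7, 258, 262, 238 and 258 CPM in morphine libraries 1 to 5. Gpr6, a marker of the D2 cells, had 0 counts in all 10 libraries. Drd2, the D2 receptor gene, was present in every library, from 64.7 to 189 CPM. The 0 counts of Gpr6 therefore do not show that these cells were missing, and their cause was not tested.

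Neighbouring brain regions entered the libraries unevenly. Slc17a7, the vesicular glutamate transporter gene of cortical neurons, was at 156, 3.04, 731, 411 and 9.92 CPM in vehicle libraries 1 to 5 and at 293, 147, 707, 360.4 and 38.6 CPM in morphine libraries 1 to 5, a 241-fold range that spanned both groups. Vehicle library 2 stood apart with 0.585, 19.2, 0.232, 0.334 and 0.300 CPM of the hypothalamic peptide gene Gal over vehicle libraries 1 to 5, and with the lowest Drd1. On the first principal component, which held 18.1% of the variance, that library was the farthest out, and on the second, with 16.5%, vehicle library 5. Results are therefore also given without vehicle libraries 2 and 5, and without vehicle libraries 2 and 3 and morphine library 3, which held the lowest (vehicle 2) and the highest Slc17a7. These sets were chosen after the libraries were seen. Dissection, as far as these genes show it, was not tested as a cause of any difference.

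**Figure D1:**
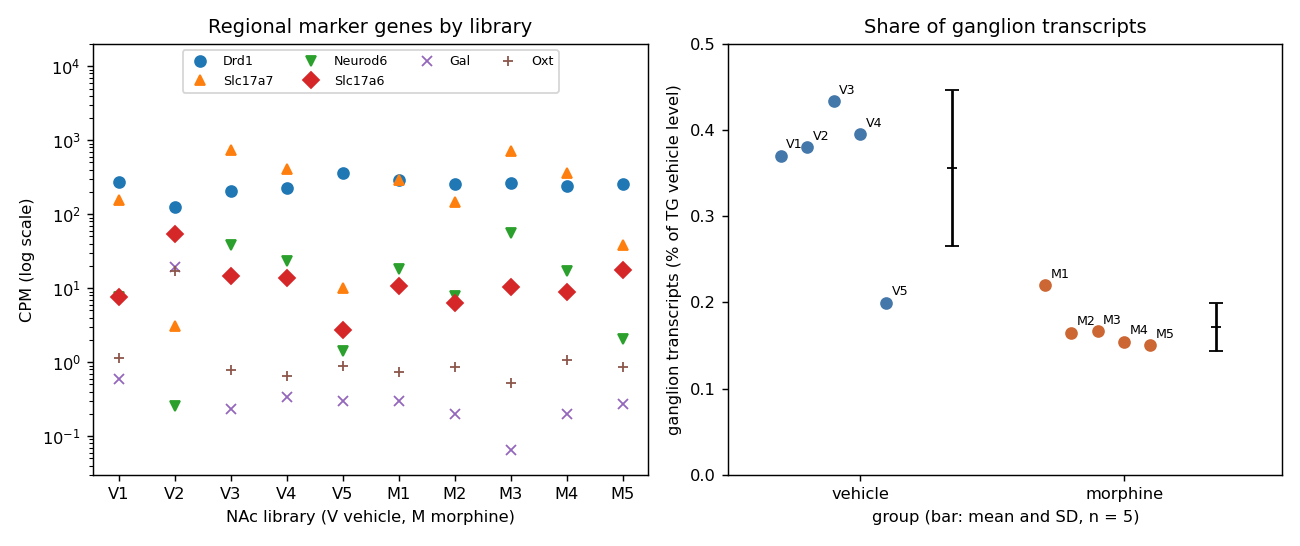
Left, CPM on a log scale of regional marker genes in each NAc library (V, vehicle; M, morphine). Right, the share of ganglion transcripts per library in percent of the TG vehicle level, with mean and SD per group (n = 5). Slc17a7 spans 3.04 to 731 CPM, and vehicle library 5, at 0.200%, lies among the morphine libraries.

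No gene differed between morphine and vehicle past the threshold. With p-values from edgeR's quasi-likelihood test, adjusted by Benjamini-Hochberg over 29910 features, 0 passed 0.05 (0%). At an unadjusted p under 0.05, 715 features were higher after morphine (2.39%) and 994 lower (3.32%). Other tests gave other counts on the same libraries. DESeq2 called 259, 91 of them higher and 168 lower. Limma voom, which was run with a weight for each library estimated from the data, called 4, 1 higher and 3 lower. A fit on all 20 libraries, in which both tissues share an estimate of the spread, called 73, 15 higher and 58 lower. Among the genes described below, DESeq2 and that fit both called, among others, Ciart, Nr1d2, Per3, Tef, Atxn3, Armc8 and Nom1 higher. Both also called Prelp, Phgdh, Serpinb1a, Lpar1, Pllp, Cryab, Pmp22, Prx, Prph, Avil and Asic3 lower. In the lists below, DESeq2 called 6 of 12 E-box clock genes higher, where it called 91 of all 44498 features tested. It called 9 of 18 oligodendrocyte genes lower, where it called 168 of all features. Of the 44498, 11871 had no adjusted p. The order of the libraries was counted as well. All 5 morphine libraries lay above all 5 vehicle libraries for 193 features (0.645%) and below them for 320 (1.07%). These percentages over all features are the background for the list counts below that come from the edgeR test on the 10 libraries. What follows describes levels and their spread, and gives "higher" and "lower" as the sign of an estimate that did not pass.

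The 12 matched genes higher with the smallest p, among those with a mean of at least 1 CPM, were Ciart, Nr1d2, Per3, Atxn3, Mme, Bhlhe41, Armc8, Nom1, Arhgef18, Ralgapa2, Ssbp2 and Usp48, of which 4 (Ciart, Nr1d2, Per3 and Bhlhe41) are clock genes. The 12 lower were Prelp, Phgdh, Bcas1, Serpinb1a, Unc5b, Lpar1, Apln, Phkg1, Pllp, Cryab, Frmd8 and Gjb1. For each of the 24 the groups did not overlap. The genes were picked by p, so this order goes with the choice.

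Clock genes held the 3 smallest p-values among the higher genes named above. In the circadian clock, BMAL1 and CLOCK bind E-box elements and switch on their own repressors, the Per, Cry, Nr1d and Bhlhe genes and Ciart, along with the output factors Dbp, Tef and Hlf. The list used here holds these genes except Cry1, which was placed with the activators and the genes of the opposite phase. Bulk levels of these genes follow the time of day. Of the genes in that list, 12 of 12 were measured and 12 were positive. At an unadjusted p under 0.05, 7 were higher and 0 lower, where 2.39% of all features were higher, and 6 had every morphine library above every vehicle library, where 0.645% of all features did. The median log2 fold change was 0.28, against -0.01 over all features tested. That this list lies higher in these libraries was known before it was chosen.

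The promoters of the 4 clock genes among the 12 higher genes with the smallest p are shown for the E-box (CACGTG, the same on both strands, in capitals). RefSeq windows of 250 bases before to 50 after the start site were at hand for 10 of the 12 genes, in 12 windows. The E-box was in 5 of these 12 windows, from 4 genes (Bhlhe41, Ciart, Per1 and Tef), and in 7.15% of all 32851 promoter windows. A match is a description of these letters, not a bound site.
Ciart, GRCm38.p6, chr3:95882179-95882478, minus strand: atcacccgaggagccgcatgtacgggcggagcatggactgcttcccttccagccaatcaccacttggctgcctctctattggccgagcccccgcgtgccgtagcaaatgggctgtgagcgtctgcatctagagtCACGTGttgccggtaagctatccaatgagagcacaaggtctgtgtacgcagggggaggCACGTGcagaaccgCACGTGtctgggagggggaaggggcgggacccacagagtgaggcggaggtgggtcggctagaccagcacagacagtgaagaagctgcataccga
Nr1d2, GRCm38.p6, chr14:18239057-18239356, minus strand: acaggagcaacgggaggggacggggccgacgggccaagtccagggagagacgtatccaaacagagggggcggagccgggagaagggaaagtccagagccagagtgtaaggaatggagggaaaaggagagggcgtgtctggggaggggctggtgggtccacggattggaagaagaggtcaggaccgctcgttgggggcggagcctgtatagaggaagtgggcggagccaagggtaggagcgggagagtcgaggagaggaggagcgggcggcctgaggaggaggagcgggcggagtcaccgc
Per3, GRCm38.p6, chr4:151044616-151044915, minus strand: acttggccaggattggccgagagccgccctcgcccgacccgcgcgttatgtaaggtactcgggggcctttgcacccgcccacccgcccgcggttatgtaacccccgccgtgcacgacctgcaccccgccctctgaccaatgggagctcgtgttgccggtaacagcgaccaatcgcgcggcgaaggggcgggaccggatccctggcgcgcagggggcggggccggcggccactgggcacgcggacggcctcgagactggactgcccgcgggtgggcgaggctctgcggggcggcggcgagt
Bhlhe41, GRCm38.p6, chr6:145865371-145865670, minus strand: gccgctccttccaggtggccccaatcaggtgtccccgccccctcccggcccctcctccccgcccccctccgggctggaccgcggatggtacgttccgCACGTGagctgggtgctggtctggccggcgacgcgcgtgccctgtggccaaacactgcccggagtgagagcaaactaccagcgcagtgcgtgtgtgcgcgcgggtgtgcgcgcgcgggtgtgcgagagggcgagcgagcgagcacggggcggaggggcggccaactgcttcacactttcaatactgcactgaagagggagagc
The window of Ciart holds 3 copies of the E-box, which begin 116, 58 and 44 bases before the start site. That of Bhlhe41 holds 1 copy, 153 bases before it, and those of Nr1d2 and Per3 hold none. The D-box letters TTATGNAA, read by Dbp, Tef and Hlf and searched on both strands, were in 2 of the 12 windows, from Per1 and Per3. They were in 3.39% of all promoter windows.

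Ciart (gene 229599, chromosome 3, 95878500 to 95882257), which represses BMAL1 and CLOCK and whose promoter has the 3 E-boxes, was at 8.73, 7.48, 7.64, 8.03 and 7.34 CPM in vehicle libraries 1 to 5. In morphine libraries 1 to 5 it was at 15.3, 14.6, 15.9, 13.1 and 10.9 CPM. The lowest morphine value was above the highest vehicle value, and the spread was wider after morphine. The means were 7.85 ± 0.560 and 13.98 ± 2.03 CPM (SD, n = 5), a log2 fold change of 0.83 ± 0.11 (SE; adjusted p = 0.126). Among matched genes alone, which are fewer tests, Ciart passed with an adjusted p = 0.0492.

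Nr1d2 (gene 353187, chromosome 14, 18204056 to 18239106), which encodes the nuclear receptor REV-ERB beta, a repressor of Arntl, was at 170.4, 175, 176, 171 and 183 CPM after vehicle and at 213, 210.0, 222, 213 and 204 CPM after morphine. Its groups did not overlap. Its log2 fold change was 0.28 ± 0.04 (adjusted p = 0.126), and limma voom called it (adjusted p = 0.0222). The period gene Per3 was at 78.9, 68.7, 68.2, 68.8 and 66.1 CPM in vehicle libraries, where library 1 stood above the rest, and at 87.1, 90.7, 88.2, 89.7 and 83.8 CPM in morphine libraries (0.33 ± 0.05, adjusted p = 0.161). Bhlhe41, a repressor that competes for E-boxes, was at 68.1, 62.2, 58.6, 64.8 and 69.8 and 77.4, 82.96, 80.7, 75.95 and 73.7 CPM in the same order of libraries (0.27 ± 0.06, adjusted p = 0.34).

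The output factors had the same sign with wider vehicle groups. Dbp was at 109, 75.5, 85.6, 102 and 116 CPM after vehicle and at 138, 137, 149, 125 and 118 CPM after morphine. The closest values, vehicle library 5 and morphine library 5, were 116 and 118 CPM, so that its groups only just did not overlap (0.45 ± 0.12, adjusted p = 0.489). Tef, a related factor chosen after its values were seen, averaged 458 ± 47.2 and 566 ± 12.4 CPM (0.31 ± 0.07, adjusted p = 0.369).

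Per1 and Per2, which are also quickly induced by hormones and neuronal activity, overlapped between groups. Per2 was at 73.2, 54.4, 87.00, 72.8 and 89.7 CPM in vehicle libraries and at 84.6, 98.6, 116, 90.6 and 79.1 CPM in morphine libraries (0.31 ± 0.15, adjusted p = 0.897). Per1 had a log2 fold change of 0.27 ± 0.16 (adjusted p = 0.948). The list of activators and genes of the opposite phase, Cry1 included, had 4 of 8 members positive and 4 negative. Arntl, which encodes BMAL1, was at 33.1, 25.6, 35.5, 34.4 and 53.99 CPM after vehicle and 31.99, 31.8, 29.4, 30.8 and 34.6 CPM after morphine (-0.20 ± 0.17, adjusted p = 0.994). Vehicle library 5 held the highest value, and the remaining vehicle values surrounded the morphine ones. Cry1 was at 0.25 ± 0.10 (adjusted p = 0.853) and Nfil3, a repressor that competes for the D-box, at -0.27 ± 0.12 (adjusted p = 0.89).

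The E-box list kept 12 of 12 positive signs without any 1 library, with medians from 0.24 to 0.32. Without vehicle libraries 2 and 5 the median was 0.27, and without vehicle libraries 2 and 3 and morphine library 3 it was 0.21, again with 12 positive. With the ganglion share as a covariate, described below, it was 0.23. The hour of death per mouse is not given, so time of day and treatment cannot be told apart for these genes.

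**Figure D2:**
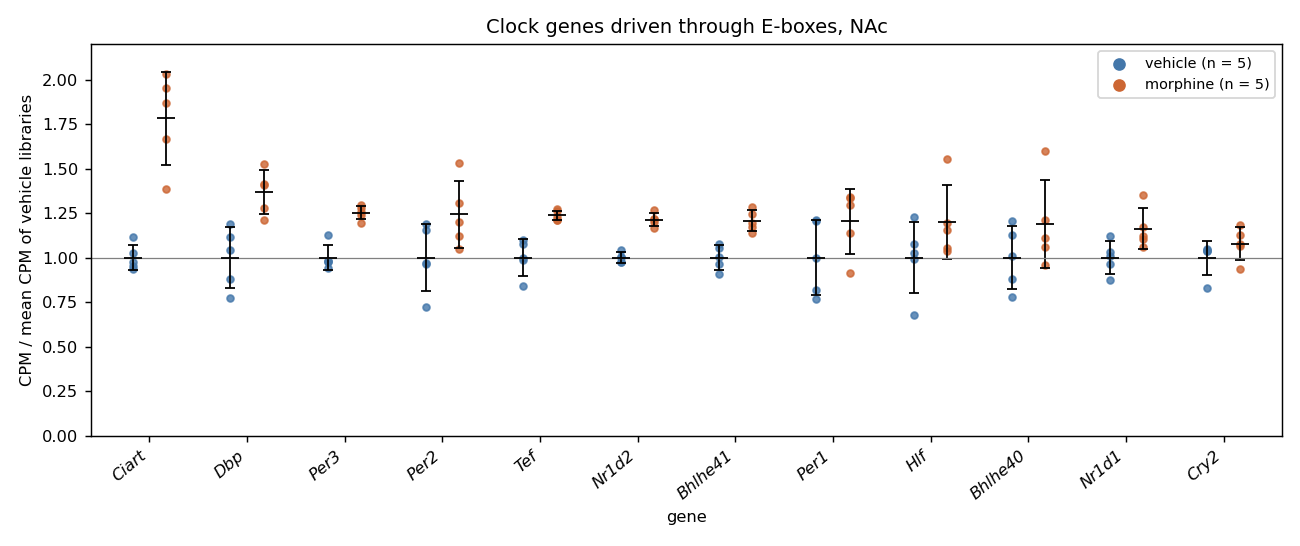
CPM of the 12 clock genes driven through E-boxes in each NAc library, divided by the mean of the 5 vehicle libraries, ordered by log2 fold change, with mean and SD per group (n = 5). Ciart spans 1.39 to 2.03 times the vehicle mean after morphine, and Cry2 0.936 to 1.19.

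The other 8 higher genes with the smallest p have varied roles and small differences. Mme encodes neprilysin, a membrane peptidase that degrades enkephalins, and it was at 27.4, 20.8, 24.5, 23.5 and 27.9 CPM in vehicle libraries and at 32.7, 31.6, 35.3, 31.2 and 33.2 CPM in morphine libraries (0.40 ± 0.08, adjusted p = 0.34). Atxn3 encodes ataxin-3, a deubiquitinase, and was at 54.1, 48.9, 50.3, 52.3 and 51.3 CPM and 59.8, 61.7, 56.9, 59.5 and 61.9 CPM (0.22 ± 0.04, adjusted p = 0.278). Both genes had every morphine library above every vehicle library. Usp48, another deubiquitinase (0.20), Armc8, a subunit of a ubiquitin ligase (0.16), Ralgapa2, a subunit of the complex that switches off Ral GTPases (0.21), Arhgef18 (0.15), Nom1 (0.23) and Ssbp2 (0.17) had log2 fold changes between 0.15 and 0.23, with adjusted p from 0.34 to 0.356.

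Myelin genes lay lower after morphine throughout their list. Oligodendrocytes wrap axons in compact myelin, of which Mbp is a main protein, and couple to astrocytes through connexins. Of 18 oligodendrocyte genes, 18 were measured and 18 were negative. At an unadjusted p under 0.05, 17 were lower, where 3.32% of all features were, and 7 had every morphine library below every vehicle library, where 1.07% of all features did. The median log2 fold change was -0.26, and the summed level of the list ran from 4364 to 5081 CPM after vehicle and from 3806 to 4285 CPM after morphine. From tissue RNA, fewer cells of a type and less RNA per cell cannot be told apart.

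Bcas1 (gene 76960, chromosome 2, 170343973 to 170427911), which marks oligodendrocytes as they begin to myelinate, was at 150.4, 163, 169, 152 and 172 CPM in vehicle libraries 1 to 5 and at 119.9, 119, 123, 129.7 and 132 CPM in morphine libraries 1 to 5. The groups did not overlap, and the log2 fold change was -0.37 ± 0.05 (adjusted p = 0.133). Mbp, the basic protein of myelin, was at 2278, 2566, 2396, 2344 and 2542 CPM and 1975, 2021, 1962, 2082 and 2134 CPM, again without overlap (-0.25 ± 0.05, adjusted p = 0.34).

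A connexin gene of oligodendrocytes had a larger estimate than Mbp. Gjb1 (connexin 32) was at 9.71, 11.3, 10.9, 10.2 and 10.03 CPM after vehicle and 6.60, 7.08, 6.86, 8.07 and 8.07 CPM after morphine (-0.51 ± 0.08, adjusted p = 0.176). Each morphine value was below each vehicle value. Gjb1 is also a gene of peripheral myelin.

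Further genes of the lineage stood among the lower genes with the smallest p. Lpar1, a receptor for lysophosphatidic acid that oligodendrocytes carry, was at 36.99, 41.9, 40.2, 36.8 and 40.6 CPM and 30.1, 30.7, 31.1, 31.97 and 32.8 CPM (-0.33 ± 0.05, adjusted p = 0.138). Pllp, the myelin tetraspan protein plasmolipin, was at 40.2, 46.8, 39.9, 42.5 and 42.5 CPM and 34.04, 33.4, 33.1, 35.6 and 32.6 CPM (-0.33 ± 0.05, adjusted p = 0.161). Serpinb1a, an inhibitor of serine proteases, was at 7.88, 8.49, 9.82, 8.73 and 9.89 CPM and 5.63, 5.89, 5.62, 6.12 and 6.41 CPM (-0.59 ± 0.09, adjusted p = 0.133). In all of these the groups were separate.

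Genes of oligodendrocyte precursors were mostly negative too. Of 13 precursor genes, 12 were negative, with a median of -0.21. At an unadjusted p under 0.05, 5 were lower (all features, 3.32%), and 4 did not overlap (all features, 1.07% below). Gpr17, a receptor of cells committed to differentiate, was at 72.6, 82.4, 79.4, 78.9 and 94.6 CPM and 61.02, 65.8, 55.5, 64.4 and 68.4 CPM (-0.37 ± 0.08, adjusted p = 0.34). Sox10, the transcription factor of the whole lineage, had a log2 fold change of -0.31 ± 0.07 (adjusted p = 0.393), Olig1 of -0.32 ± 0.10 (adjusted p = 0.7) and Enpp6, which marks newly forming oligodendrocytes, of -0.23 ± 0.07 (adjusted p = 0.693). Vehicle library 2 held the highest Olig1 and vehicle library 5 the highest Enpp6.

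Signs within the oligodendrocyte list stayed negative for 18 of 18 genes without any 1 library, with medians from -0.31 to -0.22. Without vehicle libraries 2 and 5 the median was -0.20 with 12 lower at an unadjusted p under 0.05, and without vehicle libraries 2 and 3 and morphine library 3 it was -0.21 with 11. With the ganglion share as a covariate it was -0.39 with 12. In these 3 fits, in that order, 2065 of 31093, 2243 of 30689 and 2348 of 29910 features had an unadjusted p under 0.05 in either direction. The precursor median shrank more, to -0.12 and -0.08 in the fits that leave libraries out.

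Astrocyte genes were mostly negative. Of 16 astrocyte genes, 14 were negative, with a median of -0.14. At an unadjusted p under 0.05, 6 were lower (all features, 3.32%), and 2 did not overlap (all features, 1.07% below). Phgdh (gene 236539, chromosome 3, 98313171 to 98339969), the first enzyme of serine synthesis, which in brain is made mainly by astrocytes, was at 55.7, 52.9, 55.2, 55.1 and 58.6 CPM in vehicle libraries 1 to 5. In morphine libraries 1 to 5 it was at 45.2, 45.04, 44.5, 45.7 and 44.8 CPM, a narrow range below every vehicle value. The log2 fold change was -0.30 ± 0.04 (adjusted p = 0.0995), and limma voom (adjusted p = 0.0197) and the fit on matched genes alone (adjusted p = 0.0492) called it.

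The pathway around Phgdh did not share its sign. Of 24 genes of serine synthesis and of the amino acid response driven by ATF4, 10 were positive and 14 negative, with a median of -0.03. Mthfd1l, a mitochondrial folate enzyme, was positive at 0.33 ± 0.13 (adjusted p = 0.844), and Slc7a11, the cystine transporter, negative at -0.27 ± 0.10 (adjusted p = 0.813).

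Aqp4, the water channel of astrocyte endfeet, was at 96.3, 83.7, 93.8, 88.2 and 97.8 CPM after vehicle and 74.6, 71.4, 70.5, 81.01 and 77.8 CPM after morphine, without overlap (-0.29 ± 0.06, adjusted p = 0.324). S100b had a log2 fold change of -0.34 ± 0.09 (adjusted p = 0.487) and Gja1, the main astrocyte connexin, of -0.27 ± 0.08 (adjusted p = 0.642). Gfap, the filament of reactive astrocytes, was at 45.8, 44.8, 45.2, 49.3 and 29.3 CPM and 29.2, 31.3, 32.8, 35.02 and 37.1 CPM (-0.37 ± 0.13, adjusted p = 0.768). Its vehicle library 5 fell among the morphine values, so the groups overlapped through that library alone. Other astrocyte genes of the list, Aldh1l1, Slc1a2, Slc1a3 and Fgfr3, had log2 fold changes between -0.07 and 0.03 and are named after their values were seen.

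Microglia showed little. Of 14 microglial genes 12 were negative, with a median of -0.10 and 1 lower at an unadjusted p under 0.05, C1qb, which encodes a chain of complement C1q (-0.21 ± 0.09, adjusted p = 0.86). Innate immune genes gave the same result. Of 14 measured genes of cytokines, toll-like receptors and NF-kB targets, 0 had an unadjusted p under 0.05, while 9 of the list's 23, among them Il1b, Il6, Tnf and Il10, had too few counts to test. Tlr4 was at -0.30 ± 0.15 (adjusted p = 0.903). Interferon-induced genes had a median of -0.04, with Rsad2 at -0.54 ± 0.19 (adjusted p = 0.747) and Oasl2 at -0.56 ± 0.24 (adjusted p = 0.86), and MHC genes a median of -0.16, with Cd74 at -0.60 ± 0.23 (adjusted p = 0.813).

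Genes of vessels, meninges and matrix were lower in part. Prelp (gene 116847, chromosome 1, 133910304 to 133930102), a small leucine-rich proteoglycan that anchors basement membranes, had the smallest p of all features. It was at 12.6, 12.03, 12.3, 14.2 and 12.5 CPM in vehicle libraries 1 to 5 and at 7.55, 8.10, 8.13, 8.49 and 8.46 CPM in morphine libraries 1 to 5. Vehicle library 4 was the highest, and the groups were far apart relative to their spread. The log2 fold change was -0.64 ± 0.07 (adjusted p = 0.0746). It passed in limma voom (adjusted p = 0.0197), among matched genes alone (0.0210) and with a filter of 1 CPM in 5 libraries (0.0496).

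The leptomeningeal fibroblast list, which includes Prelp, had 11 of 12 genes negative and a median of -0.27. Of the 12, 5 were lower at an unadjusted p under 0.05 (all features, 3.32%) and 2 had no overlap (all features, 1.07% below). Col3a1, a fibrillar collagen gene, was at 2.71, 2.47, 2.24, 2.77 and 2.21 CPM and 1.85, 1.76, 1.49, 1.73 and 1.90 CPM (-0.51 ± 0.12, adjusted p = 0.393). The proteoglycan genes Lum (-0.45 ± 0.16, adjusted p = 0.772) and Dcn (-0.45 ± 0.18, adjusted p = 0.843) overlapped between groups. Fibroblasts of the trigeminal ganglia also make these matrix genes.

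Among endothelial genes 9 of 11 measured were negative, with a median of -0.10. Of the 11, 4 were lower at an unadjusted p under 0.05 (all features, 3.32%). Cldn5, the tight junction protein of the blood-brain barrier, was at 25.4, 21.6, 24.7, 27.9 and 29.9 CPM after vehicle and 19.2, 18.4, 20.9, 18.1 and 19.1 CPM after morphine (-0.44 ± 0.09, adjusted p = 0.34), without overlap. Cdh5, the endothelial cadherin, was at -0.22 ± 0.06 (adjusted p = 0.577), and the VEGF receptor genes Flt1 and Kdr at -0.16 ± 0.05 (adjusted p = 0.727) and -0.28 ± 0.11 (adjusted p = 0.837). Apln, which encodes the peptide apelin, was at 22.4, 25.7, 23.01, 23.3 and 29.4 CPM and 18.5, 16.8, 16.9, 16.7 and 17.1 CPM (-0.53 ± 0.08, adjusted p = 0.138). Unc5b, a netrin receptor of vessels and axons, was at 31.2, 37.6, 31.2, 34.4 and 32.9 CPM and 23.4, 24.7, 25.1, 24.04 and 26.9 CPM (-0.43 ± 0.06, adjusted p = 0.133). Ependymal and choroid plexus genes, which line the ventricles, were negative in 7 of 9 measured, with a median of -0.42 and 1 lower at an unadjusted p under 0.05. Pericyte genes had a median of -0.07 with 0 of 11 at an unadjusted p under 0.05.

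The remaining lower genes with the smallest p were Phkg1, Cryab and Frmd8. Phkg1, a catalytic subunit of phosphorylase kinase, which starts glycogen breakdown, was at 16.8, 16.4, 16.96, 16.7 and 16.7 CPM and 13.1, 11.8, 11.9, 13.3 and 13.9 CPM (-0.39 ± 0.06, adjusted p = 0.145). Cryab, a small heat shock protein abundant in oligodendrocytes, was at 58.4, 65.7, 67.1, 61.4 and 74.1 CPM and 45.6, 47.6, 48.4, 47.4 and 53.4 CPM (-0.43 ± 0.07, adjusted p = 0.165). Frmd8 was at -0.29 ± 0.05 (adjusted p = 0.176).

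**Figure D3:**
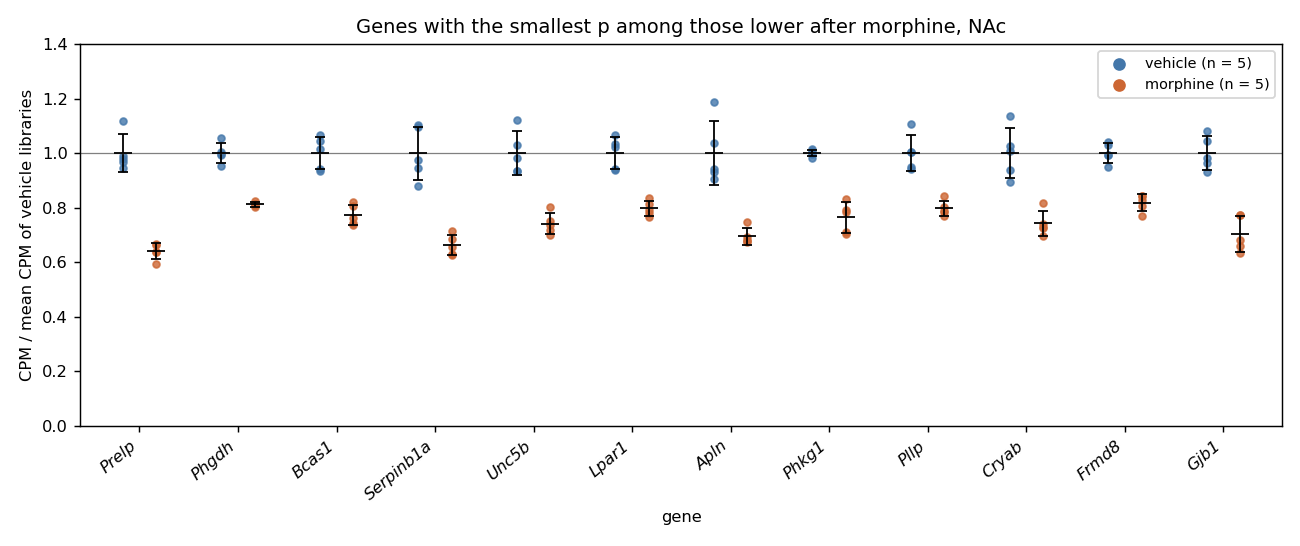
CPM of the 12 matched genes lower after morphine with the smallest p, in each NAc library, divided by the mean of the 5 vehicle libraries, with mean and SD per group (n = 5). They were picked by p. Prelp spans 0.593 to 0.667 times the vehicle mean after morphine and Phgdh 0.801 to 0.823.

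Transcripts typical of the ganglion were lower in the morphine NAc libraries too. Over 36 genes at least 200 times higher in TG than in NAc of vehicle mice, with at least 20 CPM in TG, the summed level in vehicle NAc libraries 1 to 5 was 0.370, 0.381, 0.434, 0.396 and 0.200% of that in TG. In morphine NAc libraries 1 to 5 it was 0.220, 0.165, 0.167, 0.154 and 0.150%. Vehicle library 5 lay among the morphine libraries, and the means were 0.356 ± 0.0905% and 0.171 ± 0.0282% (SD, n = 5). The choice of the 36 genes used the NAc vehicle mean, which is an arm of this comparison, and no test was made.

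Genes of Schwann cells, the myelinating glia of nerves, had 9 of 11 measured members negative and a median of -0.52. Of the 11, 7 were lower at an unadjusted p under 0.05 (all features, 3.32%) and 2 had no overlap (all features, 1.07% below). Their summed level ran from 171 to 202 CPM after vehicle and from 148 to 186 CPM after morphine. Pmp22 was at 23.00, 22.7, 26.1, 24.9 and 20.7 CPM and 17.5, 14.6, 18.02, 16.00 and 13.9 CPM (-0.55 ± 0.09, adjusted p = 0.178), without overlap, and Prx, a scaffold protein of Schwann cells, at -0.78 ± 0.18 (adjusted p = 0.369). By its means in vehicle mice Prx meets the rule that picked the genes of the ganglion share, so its lower level is part of that share.

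Sensory neuron genes had 14 of 16 measured members negative and a median of -0.80. Of the 16, 8 were lower (all features, 3.32%) and 1 higher (all features, 2.39%) at an unadjusted p under 0.05. Their summed level ran from 181 to 294 CPM after vehicle and from 254 to 349 CPM after morphine, most of it from Tac1, which medium spiny neurons also make. Prph, a filament of peripheral neurons, was at 3.76, 3.38, 3.98, 3.95 and 1.34 CPM and 1.92, 1.44, 1.53, 1.44 and 0.994 CPM (-1.16 ± 0.29, adjusted p = 0.436). Scn10a, the nociceptor sodium channel, was at 2.82, 3.27, 3.96, 3.05 and 1.24 CPM and 2.17, 1.33, 1.87, 1.34 and 1.18 CPM (-0.86 ± 0.30, adjusted p = 0.763), and in both genes vehicle library 5 lay among the morphine values. Avil (-0.94), Pou4f1 (-0.83) and the acid-sensing channel gene Asic3 (-0.80) were negative as well, with adjusted p of 0.364, 0.564 and 0.403. By their means in vehicle mice Prph, Scn10a, Avil and Pou4f1 meet the rule that picked the genes of the ganglion share. Their lower level is therefore part of the lower share and not a separate observation.

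Satellite glia, the cells that wrap ganglion neurons, share many genes with astrocytes. Their list had 9 of 9 genes negative, with 3 lower at an unadjusted p under 0.05 (all features, 3.32%) and a median of -0.14.

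With the share as a covariate, 0 features passed, the Schwann cell median was -0.10 and the sensory neuron median 0.20. In that fit Prph, which meets the rule for the genes of the share, was at 0.38. Under the same covariate Prelp was at -0.67 ± 0.13, Phgdh at -0.38 ± 0.06, Bcas1 at -0.49 ± 0.09 and Ciart at 1.03 ± 0.20 (SE), none past the threshold (adjusted p = 0.461, 0.438, 0.438 and 0.492). Because the share differs between groups, the covariate and treatment overlap in that fit.

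Opioid receptors and peptides did not differ past the threshold. Oprm1, the mu receptor gene and the target of morphine, was at 1.82, 1.32, 1.12, 1.42 and 1.31 CPM in vehicle libraries 1 to 5 and at 1.43, 1.53, 1.53, 1.81 and 1.65 CPM in morphine libraries 1 to 5. The groups overlapped at these low levels, with a log2 fold change of 0.18 ± 0.15 (adjusted p = 0.994). Oprk1, the kappa receptor gene, was at 70.1, 51.4, 55.2, 57.6 and 71.2 CPM and 76.8, 72.2, 68.1, 66.8 and 75.6 CPM (0.23 ± 0.10, adjusted p = 0.852). The delta receptor gene Oprd1 was at 0.11 ± 0.17 (adjusted p = 0.998) and the nociceptin receptor gene Oprl1 at -0.25 ± 0.27 (adjusted p = 0.998), with vehicle library 2 at 64.2 CPM against 20.7 to 30.5 CPM in the other vehicle libraries.

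The enkephalin and dynorphin precursor genes had positive values with wide groups. Penk was at 59.6, 29.7, 35.9, 52.01 and 61.7 CPM after vehicle and 72.2, 67.7, 64.01, 51.2 and 74.3 CPM after morphine (0.46 ± 0.20, adjusted p = 0.865). Pdyn was at 227, 145, 146, 212 and 227 CPM and 227, 263, 160.4, 256 and 307 CPM (0.34 ± 0.19, adjusted p = 0.943). Both overlapped, with vehicle library 2 the lowest. Pnoc, the nociceptin precursor gene, was at -0.89 ± 0.56 (adjusted p = 0.96), and vehicle library 2 held 3.72, 16.6, 4.39, 3.80 and 1.18 CPM in the order of vehicle libraries 1 to 5. The list of opioid peptides and peptidases, which includes Mme, had 4 of 10 positive, with 2 higher at an unadjusted p under 0.05. Of 22 regulators of opioid receptors, 8 were positive and 0 had an unadjusted p under 0.05, in a list with a median of -0.03.

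Dopamine and medium spiny neuron genes overlapped between groups, and their signs varied with the libraries used. Drd2 was at 146, 64.7, 104, 121 and 189 CPM in vehicle libraries and at 132, 135, 142, 111 and 131 CPM in morphine libraries (0.06 ± 0.23, adjusted p = 0.998). Vehicle libraries 2 and 5 were the lowest and the highest of all 10, as they were for Drd1 (0.14 ± 0.23, adjusted p = 0.998). Drd3, a receptor concentrated in the accumbens, was at 0.36 ± 0.22 (adjusted p = 0.955), with morphine library 3 at 5.44 CPM against 10.8 to 12.7 CPM in the other morphine libraries. Genes of the direct pathway, the D1 cells, were positive in 6 of 10 (median 0.10), and those of the indirect pathway, the D2 cells, in 5 of 8 measured (median 0.04). Striatal interneuron genes were positive in 7 of 14. Of 18 genes shared by medium spiny neurons, 16 were positive with a median of 0.09. All 18 were positive without vehicle libraries 2 and 5 (median 0.15), but 4 without vehicle libraries 2 and 3 and morphine library 3 (median -0.14) and 2 with the ganglion share as covariate (median -0.47).

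The accumbens peptide genes Tac1 and Cartpt were positive. Tac1, which encodes substance P, was at 239, 124, 182, 215 and 249.7 CPM and 268, 271, 222, 278 and 310.3 CPM (0.42 ± 0.18, adjusted p = 0.86). Cartpt was at 29.2, 23.2, 18.4, 25.04 and 7.26 CPM and 30.5, 43.4, 15.7, 52.1 and 53.3 CPM (0.92 ± 0.40, adjusted p = 0.863), and its groups overlapped, with morphine library 3 below 4 vehicle libraries. Of 19 neuropeptide genes, 13 were positive and 3 were higher at an unadjusted p under 0.05.

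Activity and cAMP genes, which respond to opioids within hours and during withdrawal, showed no difference past the threshold at 24 h. Of 20 immediate early genes, 19 were positive, 0 had an unadjusted p under 0.05, and the median was 0.17. Of the 20, 8 were positive once vehicle libraries 2 and 5 were left out, with a median of -0.06. Fos was at 15.4, 22.1, 37.1, 26.5 and 12.02 CPM and 32.1, 21.3, 29.6, 25.03 and 10.5 CPM (0.07 ± 0.35, adjusted p = 0.998). Fosb, whose stable product builds up with repeated drug exposure, was at 16.1, 8.98, 20.1, 15.3 and 15.6 CPM and 21.2, 20.9, 23.6, 17.8 and 13.3 CPM (0.35 ± 0.21, adjusted p = 0.958).

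Arc (0.18 ± 0.33, adjusted p = 0.998), Egr1 (0.04 ± 0.31, adjusted p = 0.999) and Junb (0.40 ± 0.23, adjusted p = 0.94) overlapped between groups. Bdnf, a neurotrophin gene transcribed in cortex, ran with the cortical transcripts, at 4.23, 4.02, 18.5, 8.30 and 0.689 CPM and 6.40, 3.63, 16.9, 8.38 and 1.65 CPM (0.05 ± 0.79, adjusted p = 0.999). Adcy5, the main striatal adenylyl cyclase gene, was at 986, 511, 761, 897 and 1391 CPM and 967, 924, 939, 817 and 925 CPM (0.01 ± 0.22, adjusted p = 0.999). Adcy9 was at 0.20 ± 0.13 (adjusted p = 0.96) and the phosphodiesterase gene Pde4b at 0.28 ± 0.11 (adjusted p = 0.826). Of 24 cAMP genes, 16 were positive with a median of 0.05.

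Receptors for glutamate and GABA centred near zero, with medians of 0.03 over 23 genes and -0.02 over 14. In each list 1 gene was higher at an unadjusted p under 0.05. Grin2a, an NMDA receptor subunit gene, was at 0.496, 0.439, 0.696, 0.557 and 0.795 CPM after vehicle and 1.75, 1.06, 1.03, 1.17 and 1.10 CPM after morphine. Its groups did not overlap, and morphine library 1 was the highest (1.03 ± 0.22, adjusted p = 0.345). DESeq2 called it (adjusted p = 0.00778), but the fit on all 20 libraries did not (adjusted p = 0.557). Gabrg3, a GABA receptor subunit gene, was at 0.20 ± 0.08 (adjusted p = 0.805), with overlap. Foxp2 (0.24 ± 0.12, adjusted p = 0.906), the GDNF receptor gene Ret (-1.05 ± 0.36, adjusted p = 0.751), Hdac5 (-0.15 ± 0.06, adjusted p = 0.85) and Maob, which degrades dopamine (-0.19 ± 0.07, adjusted p = 0.766), did not pass either, and vehicle library 2 held 24.5 CPM of Ret against 5.95 to 11.6 CPM in the other vehicle libraries. Prox1 was at -0.40 ± 0.11 (adjusted p = 0.528).

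Stress-related genes differed in sign among themselves. Fkbp5, a chaperone gene induced by glucocorticoids, was at 48.9, 40.4, 48.8, 51.2 and 52.98 CPM after vehicle and 54.7, 57.3, 59.3, 58.9 and 61.3 CPM after morphine, without overlap (0.27 ± 0.07, adjusted p = 0.487). The metallothionein genes Mt1 (-0.20 ± 0.04, adjusted p = 0.359) and Mt2 (-0.26 ± 0.07, adjusted p = 0.564) and the kinase gene Pdk4 (-0.25 ± 0.08, adjusted p = 0.693), also glucocorticoid targets, were negative. Of 18 such targets measured, 7 were positive and 11 negative, with a median of -0.05.

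Heat shock genes were negative in 13 of 13, with a median of -0.18. Of the 13, 7 were lower at an unadjusted p under 0.05 (all features, 3.32%). Hspa1a was at 13.1, 15.1, 23.9, 10.9 and 9.92 CPM and 8.73, 8.33, 9.56, 7.82 and 6.67 CPM (-0.83 ± 0.23, adjusted p = 0.547). Hspa1b, a near-identical copy whose reads the counting can assign to either gene, was at -0.89 ± 0.31 (adjusted p = 0.766), Bag3 at -0.37 ± 0.12 (adjusted p = 0.7) and Hspa8 at -0.18 ± 0.07 (adjusted p = 0.813). Vehicle library 3 held the highest Hspa1a and Hspa1b. In the fit that leaves out vehicle libraries 2 and 5, 3 of 13 were lower at an unadjusted p under 0.05. Of all 31093 features in that fit, 2065 had such a p in either direction.

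Cholesterol synthesis genes had 21 of 24 negative with a median of -0.10, and 0 at an unadjusted p under 0.05. With the ganglion share as covariate 21 of 24 were positive (median 0.34). Ribosomal protein genes had a median of -0.04 over 81 genes, and nuclear genes of oxidative phosphorylation of -0.01 over 92. Red blood cell genes had 7 of 8 measured positive, with Hba-a1 at 0.45 ± 0.21 (adjusted p = 0.897) and morphine library 3 at 66.6 CPM. Its near-identical copy makes that value uncertain.

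**Figure D4:**
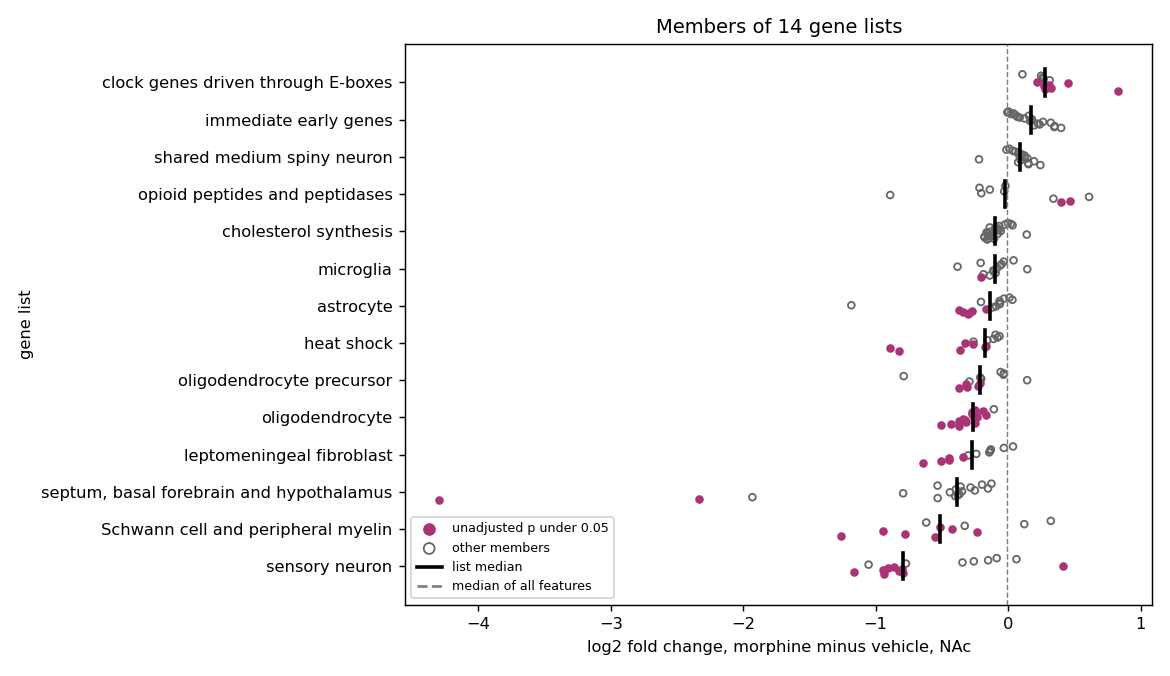
Log2 fold change, morphine minus vehicle, of every measured member of 14 gene lists in NAc, filled where the unadjusted p was under 0.05, with the list median as a bar and the median of all features as a dashed line. E-box clock genes lie above 0 and oligodendrocyte genes below 0 in every case. The far left points of the septum list are Gal and Oxt, high in vehicle library 2.

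The morphine effect in NAc was set against that in TG of the same mice. Over 32998 features, the difference passed an adjusted p of 0.05 in edgeR's quasi-likelihood test for 13 (0.0394%), 2 with the effect higher in NAc and 11 lower. With the mouse as a block, 1 passed, Gm33320 (adjusted p = 0.0461), a predicted gene. Limma voom called 0, where 2750 had an unadjusted p under 0.05, against 2248 in edgeR. The 10 genes with the smallest p by direction were Gm33320, Gm33449, Ugt1a6a, Rnf168 and Atxn3 higher in NAc, and Lnpep, Tlx2, Itgb4, Zfp292 and Serpinb1a lower.

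Of the called genes described here, only Gm33320 also passed with the mouse as a block. Prelp had a log2 fold change of -0.64 in NAc and 0.01 ± 0.08 (SE) in TG, a difference of -0.66 ± 0.10 (adjusted p = 0.0138, and 0.458 with the block). Serpinb1a had -0.59 in NAc and -0.03 ± 0.04 in TG (difference -0.57 ± 0.08, adjusted p = 0.0138, and 0.198 with the block), and Pllp -0.33 and 0.17 ± 0.06 (difference -0.50 ± 0.09, adjusted p = 0.0451, and 0.458 with the block). For Lnpep, an aminopeptidase gene, and Zfp292 the values in TG were 1.35 ± 0.16 and 1.62 ± 0.18, and in NAc -0.14 and -0.27 (adjusted p of the difference with the block 0.119 and 0.198). Gm33320 had opposite signs, 0.30 in NAc and -0.34 ± 0.06 in TG. The clock genes called in TG had the same sign there and no difference past the threshold. Dbp was at 0.45 in NAc and 1.16 ± 0.09 in TG (difference -0.72 ± 0.15, adjusted p = 0.132), and Ciart at 0.83 and 1.23 ± 0.11 (difference -0.39 ± 0.15, adjusted p = 0.641). Tlx2, a homeobox gene, was too low in NAc for the fit on that tissue.

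**Figure D5:**
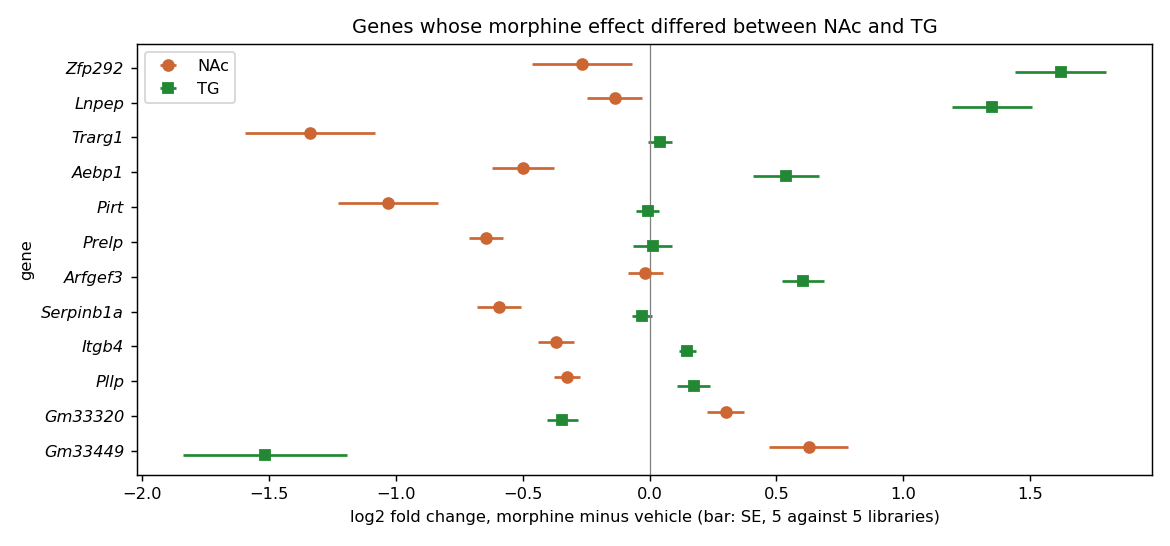
Log2 fold change after morphine with its SE (5 against 5 libraries) in NAc and TG, for the 12 of 13 genes with an adjusted p under 0.05 for the difference that were measured in both. Prelp, Serpinb1a and Pirt are near 0 in TG, while Lnpep, Zfp292 and Arfgef3 are near 0 or below in NAc and above 0 in TG.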

How the data were processed

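RNA of the nucleus accumbens was measured in 10 libraries, and of the trigeminal ganglia in 10. TRIzol and RNeasy were used for RNA, and stranded poly(A) libraries were sequenced on an Illumina instrument, per the labels' protocols. Some lanes ran first and others later, with no lane given per library, so no batch term was fitted. The authors deposited expected counts, which are estimated counts per RefSeq transcript and not normalised, made with kallisto 0.43 on GRCm38, per the submitters' processing notes. Because such counts divide reads among similar transcripts, near-identical genes are uncertain.

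Transcripts were matched to genes with RefSeq GRCm38.p6 (86606 of 107185 transcripts, 149 of them only through GENCODE M21), summed per gene and rounded. The unmatched ones, with 10.8 to 11.2% of the counts of NAc libraries, stayed as single features. The 10 NAc libraries were tested with edgeR 4.0.16 and R 4.3.3 (quasi-likelihood F test, filterByExpr, TMM, robust fit, 2-sided, Benjamini-Hochberg over 29910 features, threshold 0.05). The procedure was also run on simulated counts without regional differences, where only the sign of called genes was checked. That run does not show how it performs on these libraries. SE is the size of the log2 fold change over the root of F. The NAc minus TG difference used all 20 libraries, and its mice are paired by the labels' mouse codes. Alternatives were DESeq2 1.42.0, limma 3.58.1 voom with library quality weights, other scaling, filters, features and samples, covariates, a replicate or mouse block, and leaving out each library.

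Named were 12 genes per direction, ranked by p, up to 4 per list, fixed markers of opioid, dopamine, clock and glial biology, and 5 genes per direction for the difference. Others are said to be chosen after their values were seen. Members and lists were chosen with earlier results of these data known. No set test was run. Nothing says more of replication than that each library is a mouse. The p-values set the difference between groups against the spread between these libraries, which also holds the uneven entry of neighbouring regions.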

Additional observations from a re-analysis of the deposited data

Results flagged for a closer look

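Single libraries far from their group, by Dixon's 95% limit for 5 samples, were found in 20 of 208 groups examined, and chance flags about 5% of groups. Vehicle library 2 was the highest for Oxt (16.95 CPM), Gal (19.2 CPM), Oprl1 (64.2 CPM), Pnoc (16.6 CPM) and Olig1 (118 CPM). Vehicle library 5 was the lowest for Gfap (29.3 CPM) and Prph (1.34 CPM) and the highest for Enpp6 (13.7 CPM). Vehicle library 1 was the highest for Per3 (78.9 CPM) and Ralgapa2 (46.3 CPM), vehicle library 4 for Prelp (14.2 CPM), and vehicle library 3 the lowest for Lum (0.638 CPM). Among morphine libraries, library 1 was the highest for Apln (18.5 CPM), Avil (2.50 CPM) and Grin2a (1.75 CPM), and library 3 for Pou4f1 (0.509 CPM) and Hspa8 (1823 CPM), while it was the lowest for Drd3 (5.44 CPM). Library 4 was the lowest for Adcy5 (817 CPM) and library 5 the highest for Rsad2 (1.62 CPM).

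The log2 fold change after morphine differed between NAc and TG in edgeR's quasi-likelihood test for 13 genes. NAc minus TG was 0.64 for Gm33320 and 2.13 for Gm33449. It was -2.44 for Tlx2, -1.89 for Zfp292, -1.49 for Lnpep, -1.38 for Trarg1, -1.04 for Aebp1, -1.02 for Pirt, -0.66 for Prelp, -0.62 for Arfgef3, -0.57 for Serpinb1a, -0.52 for Itgb4 and -0.50 for Pllp. Pirt and Trarg1 are abundant in TG, at a mean of 806 and 499.5 CPM in vehicle mice, against 2.78 and 1.87 CPM in NAc. Tlx2 was at a mean of 48.85 CPM in TG and 0.148 CPM in NAc of vehicle mice. By these means Pirt, Trarg1 and Tlx2 meet the rule that picked the genes of the ganglion share. Their lower level in NAc after morphine is therefore part of the lower share and not a separate observation. With the mouse as a block 1 of the 13, Gm33320, passed.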

How the results depend on the processing

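The count of 0 features past the threshold in NAc was unchanged under library size, RLE and upper quartile scaling, no filter, single transcripts, both covariates, each of 10 libraries left out (0 to 0), vehicle libraries 2 and 5 left out, and the replicate block. It was 259 with DESeq2, 73 on all 20 libraries, 4 with limma voom, 3 with matched genes alone, 1 with 1 CPM in 5 libraries, 2 at an adjusted p of 0.10, and 1, an unmatched transcript, without vehicle libraries 2 and 3 and morphine library 3. The cortex covariate and both fits that leave several libraries out were chosen after seeing the data. Replicate numbers are only shared between morphine and vehicle mice (correlations of same-numbered deviations 0.005 to 0.16), and with the replicate block 0 passed. The 13 differences between NAc and TG became 8 with library size scaling, 0 with limma voom, 1 with the mouse as a replicate block, and 6 to 33 without each NAc library (33 without vehicle library 5, 6 without morphine library 2). The cause was not tested.

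Signs turned for 20 of 104 named genes, none past the threshold. With the ganglion share as covariate the log2 fold change was -0.079 for Cry1, 0.12 for Nfil3, 0.077 for Gfap, 0.38 for Prph, 0.68 for Scn10a, -0.28 for Oprd1, 0.34 for Oprl1, -0.074 for Pdyn, 1.35 for Pnoc, -0.40 for Drd1, -0.53 for Drd2, -0.0054 for Pde4b, -0.048 for Foxp2, 0.075 for Ret, 0.34 for Zic1 and -0.57 for Adcy5. Without vehicle libraries 2 and 3 and morphine library 3 it was -0.13 for Oprd1, 0.16 for Oprl1, 0.18 for Pnoc, -0.14 for Drd1, -0.26 for Drd2, -0.16 for Egr1 and -0.27 for Adcy5. Without vehicle libraries 2 and 5 it was -0.15 for Fos, -0.055 for Arc, -0.18 for Egr1 and -0.49 for Bdnf. Limma voom gave -0.023 for Fos, -0.11 for Egr1 and -0.26 for Bdnf, the cortex covariate -0.044 for Bdnf, and upper quartile scaling -0.00086 for Adcy5. Leaving out 1 library gave ranges of -0.14 to 0.21 for Adcy5, -0.51 to 0.78 for Bdnf, -0.022 to 0.34 for Drd1, -0.10 to 0.26 for Drd2, -0.15 to 0.24 for Egr1, -0.091 to 0.32 for Fos, -0.020 to 0.25 for Oprd1 and -0.38 to 0.10 for Oprl1. At 5 mice a group, a p that misses the threshold does not show that levels were alike.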
